A study of Mus musculus with 90 samples.

Results

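Collagens are the main structural proteins of the matrix that surrounds cells. Their chains wind around each other into a helix, and the chain type sets where the helix goes: fibrillar collagens build the ropes of connective tissue, type IV collagens build the sheets under epithelium and around vessels, and type VI collagens build beaded filaments that link cells to the fibrils. In tumours most fibrillar collagen is made by fibroblasts, while type IV collagen comes from several cell types, endothelium among them.

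The collagen genes described here are all genes whose symbol in the array annotation reads Col, a number, a and a number. They came to 42 of the 18193 genes with a probe set of their own, and where a gene had several probe sets, the brightest of them on average stood for it. By the structure their chains are known to form, 11 were fibrillar, 6 were type IV basement membrane chains, 5 were type VI beaded filament chains and 20 belonged to other types. The 20 were 9 fibril-associated chains, 4 membrane-spanning chains, 3 short-chain network chains, the 2 multiplexins Col15a1 and Col18a1, and Col7a1 with Col26a1. All 42 were tested, and no gene was dropped for a low level. Their mean log2 values were 6 or above for 22 genes and below 6 for 20, and in the second set a probe set can sit close to its background.

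The study grew mouse melanoma allografts under the skin and took RNA from whole tumours on 90 Affymetrix arrays. Every tumour carried the genotype label Hgftg;Cdk4R24C/R24C on strain B6.cBrd, so no group lacks those alleles. Controls were 7 tumours given PBS at 10 ml/kg and 22 given a control IgG at 10 mg/kg. The 5 remaining groups received anti-PD-L1 antibody, at 10 mg/kg in the sample labels while the design text also names a higher dose, and were named for the course of the tumour. There were 27 Responder tumours, taken after 2 to 12 doses once their volume had fallen by at least 5%. There were 23 NonResponder tumours, which kept growing under the antibody and were taken at matching times. The 6 Relapse tumours had shrunk below a measurable size and grew back after 4 to 10 doses, the 2 GrowthDelay tumours appeared only after treatment, and the 3 Stabilization tumours did not change in volume between measurements. Responder and NonResponder tumours were defined by the course of their growth, so these comparisons are between outcomes under 1 treatment and not between randomised arms.

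The titles of the arrays are numbers that fall into 4 ranges, which are treated as possible batches. The larger range held 53 arrays and the smaller 25, and both contained Responder (17 and 10), NonResponder (14 and 9) and Relapse (3 and 3) tumours. A range of 8 arrays held IgG only and a range of 4 held PBS only; all GrowthDelay arrays lay in the larger range and all Stabilization arrays in the smaller. What the ranges stand for is not given, and they are called the larger and the smaller series below. Array medians lay between 5.71 and 5.9 on the log2 scale. Nothing in the labels says that each array is a separate mouse, so the p-values measure the spread between these samples.

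Before any collagen value is given, 5 arrays need naming because their melanocyte marker score (the mean log2 value of 8 markers such as Mlana, Tyr and Dct) lay over 5 scaled median absolute deviations below the median of all arrays, a limit chosen after the data were seen. They were NonResponder 14 in the larger series and Responder 20, Responder 21, Stabilization 1 and Stabilization 2 in the smaller, with scores of 8.68, 7.03, 6.97, 7.21 and 9.26 against group medians of 10.34 in Responder and 10.50 in NonResponder tumours. Markers of neighbouring tissue were high on several of them: the lymph node and B cell score was 9.68 on NonResponder 14 and 9.83 on Responder 20, and the skeletal muscle score was 13.6 on Responder 21. High muscle scores were not particular to the 5 arrays. The score was 12.2 on Responder 14 and 11.5 on Responder 22, which are not among them, and 5.00 on NonResponder 14. The results that these arrays touch are given with and without them.

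The sequence upstream of 33 of the 42 genes was in the RefSeq promoter table (build GRCm38.p6, 250 bases before to 50 after the start). Col1a2 is printed because it was higher in Responder tumours with its partner Col1a1, and Col4a1 with Col4a2 because the pair lies head to head on chromosome 8. Capitals mark CCAAT (or its reverse complement ATTGG) and the GC box GGGCGG (or CCGCCC), letters that were searched on both strands without regard to whether a factor binds there.
Col1a2, chr6:4505368-4505667, plus strand: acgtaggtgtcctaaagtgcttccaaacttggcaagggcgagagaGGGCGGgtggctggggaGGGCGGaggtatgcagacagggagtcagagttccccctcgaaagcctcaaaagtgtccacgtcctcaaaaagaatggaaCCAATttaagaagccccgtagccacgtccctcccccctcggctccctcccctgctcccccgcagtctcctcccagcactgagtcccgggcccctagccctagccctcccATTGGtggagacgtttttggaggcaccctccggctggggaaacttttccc
Col4a1, chr8:11312777-11313076, minus strand: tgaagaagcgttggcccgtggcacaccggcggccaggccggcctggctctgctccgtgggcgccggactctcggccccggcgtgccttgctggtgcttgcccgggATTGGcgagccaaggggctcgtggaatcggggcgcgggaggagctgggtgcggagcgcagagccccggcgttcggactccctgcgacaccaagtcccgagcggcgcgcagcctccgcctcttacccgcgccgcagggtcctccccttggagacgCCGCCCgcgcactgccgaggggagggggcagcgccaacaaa
Col4a2, chr8:11312555-11312854, plus strand: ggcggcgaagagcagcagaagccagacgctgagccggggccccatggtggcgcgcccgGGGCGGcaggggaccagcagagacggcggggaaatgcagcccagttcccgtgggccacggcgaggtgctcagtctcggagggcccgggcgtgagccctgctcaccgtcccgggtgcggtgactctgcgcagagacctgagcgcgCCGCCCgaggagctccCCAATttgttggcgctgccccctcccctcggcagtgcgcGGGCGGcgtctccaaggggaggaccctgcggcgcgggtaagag

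The start sites of Col4a1 and Col4a2 were 21 bases apart on opposite strands, and the printed windows share 78 bases. The other opposed pair, Col4a6 and Col4a5 on chromosome X, had start sites 1343 bases apart and windows that do not overlap. The 33 genes had 36 windows, since Col6a2, Col9a1 and Col18a1 have a pair of start sites each. CCAAT was found in 13 of the 36 collagen windows and in 37.4% of 32851 mouse promoter windows of the same length. GGGCGG was found in 22 of 36 and in 35.7% of all windows, TATAAA in 5 of 36 and in 13.6%, and CTCCTCCC in 10 of 36 and in 8.88%. Among the collagen genes that were higher in Responder tumours, 5 of 12 windows held CCAAT and 8 of 12 the GC box, beside 6 and 12 of 19 windows of those that were not called. These are matches of letters in a window and say nothing of what binds there.

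The first comparison asks how the collagen genes differed between tumours that shrank and tumours that grew under the same antibody. The chains that build ordinary fibrils and beaded filaments were higher in Responder tumours, by 1.70 to 2.72 times: Col1a1, Col1a2, Col3a1, Col5a1, Col5a2 and Col5a3, and Col6a1, Col6a2 and Col6a3. The vessel-type basement membrane chains Col4a1 and Col4a2 were higher by less, 1.44 and 1.55 times. The 6 chains that were lower differed by -0.12 to -0.32 on the log2 scale. In all, limma called 13 of 42 collagen genes higher and 6 lower at a Benjamini-Hochberg adjusted p under 0.05, with 18193 genes tested. Over all genes 17.2% were called higher and 29.8% lower in that comparison, 47% in either direction. In bulk tissue, fewer cells of a type and less RNA per cell cannot be told apart.

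By class, 6 of 11 fibrillar genes were higher and none lower, with a median difference of 0.77 on the log2 scale. Of the beaded filament genes 3 of 5 were higher and none lower, with a median of 1.01. Of the basement membrane genes 2 of 6 were higher and 2 lower, and of the 20 other genes 2 were higher and 4 lower with a median of -0.06. The median over all 18193 genes was also -0.06. Among genes with a mean of at least 6, 13 of 22 collagen genes were higher and 3 lower (median 0.60), beside 25.2% higher and 23.1% lower over all 11241 such genes (median 0.01). Among the 20 collagen genes with a lower mean, 0 were higher and 3 lower, beside 4.46% and 40.5% of the 6952 such genes.

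Col1a1 and Col1a2 encode the chains of type I collagen, the main protein of fibrils. Col1a1 read 7.21 at the lowest, 9.94 at the median and 13.21 at the highest of 27 Responder arrays, and 6.12, 8.72 and 11.67 over 23 NonResponder arrays. The ranges overlapped widely: 23 of 27 Responder arrays lay above the NonResponder median, but 5 lay above the highest NonResponder array. That array was NonResponder 14, which is among the 5 with few melanocyte transcripts. Without those 5 arrays the highest NonResponder value was 10.43, and the highest Responder value stayed at 13.21. The difference was 1.44 ± 0.38 (SE) on the log2 scale, a fold of 2.72 with a 95% interval of 0.70 to 2.19 in log2 units and an adjusted p of 0.00253. Col1a2 ranged from 8.80 through 12.11 to 14.30 in Responder tumours and from 6.89 through 11.10 to 13.48 in NonResponder tumours. Its highest values without the 5 arrays were 14.24 in Responder and 12.55 in NonResponder tumours. Its difference was 1.29 ± 0.34 (adjusted p = 0.00286), and 22 of 27 Responder arrays lay above the NonResponder median.

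Col3a1, which joins type I collagen in the fibrils of soft tissue, read 8.92, 13.08 and 14.38 (lowest, median, highest) in Responder and 6.92, 12.17 and 13.82 in NonResponder tumours. The lowest arrays of both groups were far below their medians, and 18 of 27 Responder arrays lay above the NonResponder median. The difference was 0.95 ± 0.32 (adjusted p = 0.0128).

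The type V chains start fibrils and set their width. Col5a1 read 7.87, 9.15 and 12.01 in Responder and 7.38, 8.43 and 10.01 in NonResponder tumours, and 25 of 27 Responder arrays lay above the NonResponder median. Its difference of 0.95 ± 0.23 had the smallest adjusted p of the collagen genes, 0.00136. Col5a2 differed by 0.77 ± 0.25 (adjusted p = 0.0122). Col5a3 read 5.67, 7.12 and 10.73 in Responder and 5.10, 6.42 and 8.72 in NonResponder tumours, a difference of 1.02 ± 0.31 (adjusted p = 0.00712). Without the 5 low-melanocyte arrays the highest Responder and NonResponder values were 11.55 and 9.47 for Col5a1, and 10.63 and 7.44 for Col5a3. A second probe set of Col5a3 had a mean of 3.78 and a difference of 0.02, so the result for this gene rests on 1 of its probe sets. The remaining fibrillar genes were not called: the cartilage chains Col2a1 (-0.03) and Col11a1 (-0.03), and Col24a1 (0.23, adjusted p = 0.0733) and Col27a1 (0.11, adjusted p = 0.264) with smaller differences. A second Col27a1 probe set differed by 0.28 (adjusted p = 0.046 in a limma fit of all probe sets).

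The type VI chains Col6a1, Col6a2 and Col6a3 assemble together into the beaded filament. Col6a2 read 8.14, 9.75 and 13.35 in Responder and 7.47, 8.54 and 11.68 in NonResponder tumours. In Responder tumours 25 of 27 arrays lay above the NonResponder median, and the highest arrays of both groups were among the 5 with few melanocyte transcripts. The differences were 1.26 ± 0.32 for Col6a1 (adjusted p = 0.00197), 1.27 ± 0.33 for Col6a2 (adjusted p = 0.00223) and 1.01 ± 0.29 for Col6a3 (adjusted p = 0.00516). Col6a4 and Col6a5, later members of the family on dim probe sets, differed by -0.17 (adjusted p = 0.0606) and -0.08 (adjusted p = 0.0771) and were not called. A second, also dim, Col6a4 probe set differed by -0.13 (adjusted p = 0.00517 in the limma fit of all probe sets).

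**Figure D1:**
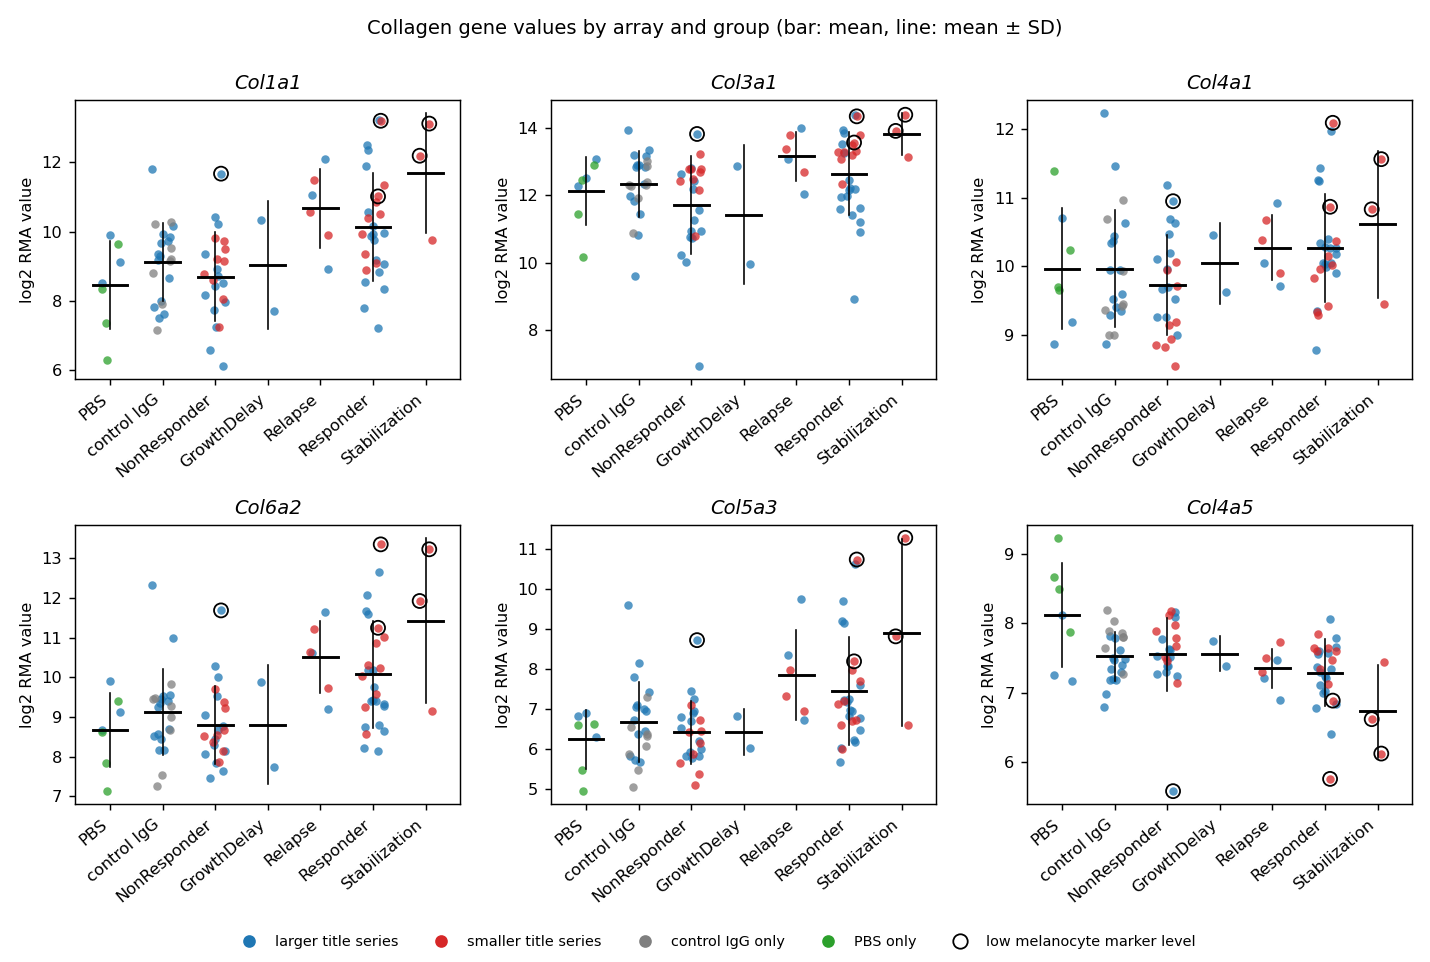
Log2 expression (vertical axis) of Col1a1, Col3a1, Col4a1, Col6a2, Col5a3 and Col4a5 on each of 90 arrays, arranged by the 7 treatment groups; colours show the title series, rings the 5 arrays with few melanocyte transcripts, bars the group mean and lines 1 SD each way. Responder, Relapse and Stabilization arrays tend to sit higher than NonResponder arrays for Col1a1 and Col6a2, with wide overlap, and the lowest Col4a5 values in the Responder, NonResponder and Stabilization groups are ringed.

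Col4a1 and Col4a2 form the type IV collagen found in most basement membranes, including those of vessels. Col4a1 read 8.77, 10.14 and 12.10 in Responder and 8.54, 9.69 and 11.19 in NonResponder tumours, and 22 of 27 Responder arrays lay above the NonResponder median. The differences were 0.53 ± 0.22 for Col4a1 (adjusted p = 0.0401) and 0.63 ± 0.24 for Col4a2 (adjusted p = 0.0295). The Col4a1 call was lost without the 5 arrays (0.44, adjusted p = 0.0666), while Col4a2 stayed past the threshold (0.55, adjusted p = 0.0456). Among the chains of more restricted membranes, Col4a4 was lower by -0.22 ± 0.07 (adjusted p = 0.0103) and Col4a6 by -0.13 ± 0.05 (adjusted p = 0.0325), both on dim probe sets. Col4a3 differed by -0.04 and Col4a5 by -0.26 ± 0.13 (adjusted p = 0.0796). Without the 5 arrays the Col4a5 difference was also -0.26 and its adjusted p was 0.0252. Second probe sets differed by -0.39 for Col4a5 (adjusted p = 0.0177) and -0.12 for Col4a3 (adjusted p = 0.0189) in the limma fit of all probe sets.

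Among the other types, Col16a1, a fibril-associated chain, was higher by 0.42 ± 0.13 (adjusted p = 0.00799), with 8 of 27 Responder arrays above the highest NonResponder array. Col15a1, a multiplexin of the basement membrane zone, was higher by 0.57 ± 0.20 (adjusted p = 0.0191). Its relative Col18a1, whose fragment is endostatin, differed by 0.39 ± 0.18 (adjusted p = 0.0606) and was not called. A second Col18a1 probe set differed by 0.46 (adjusted p = 0.0282 in the limma fit of all probe sets), so the call depends on the probe set. Col12a1 and Col14a1, which decorate the surface of fibrils, differed by 0.63 ± 0.30 (adjusted p = 0.077) and -0.01 ± 0.20 (adjusted p = 0.962). Other probe sets of Col14a1 gave 0.37 and, on a dim one (mean 3.72), -0.10, so the direction for this gene is not settled. Those of Col12a1 gave 0.18 and, on dim ones (means 3.58 and 3.72), -0.09 and -0.06. The size for Col12a1 thus rests on 1 of its 4 probe sets.

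The 4 lower genes of these types moved little. Col17a1, a chain of the junctions that hold keratinocytes to the skin, read 4.33, 5.09 and 5.67 in Responder and 4.74, 5.34 and 5.99 in NonResponder tumours, a difference of -0.32 ± 0.10 (adjusted p = 0.00862). Col20a1 differed by -0.19 ± 0.05 (adjusted p = 0.00465), with 23 of 27 Responder arrays below the NonResponder median. Col22a1 differed by -0.13 (adjusted p = 0.012) and Col25a1 by -0.12 (adjusted p = 0.0238). Of the 4 probe sets of Col20a1, 3 gave a negative difference and 1 gave 0.15.

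**Figure D2:**
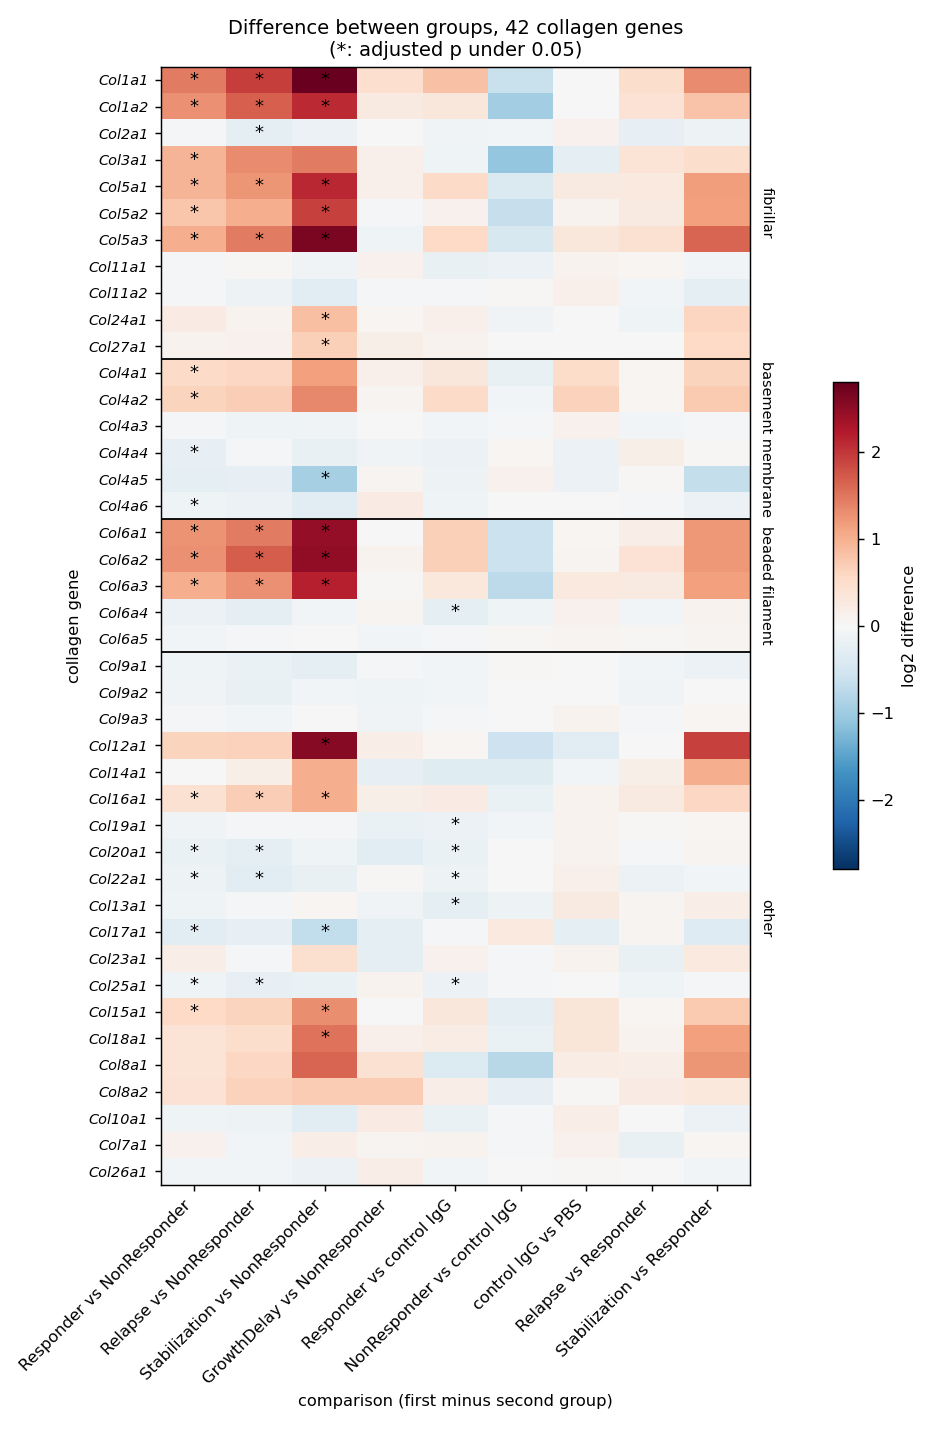
Log2 difference (colour) of each of the 42 collagen genes (vertical axis, grouped by class) in the 9 comparisons (horizontal axis); an asterisk marks a limma adjusted p under 0.05. The asterisks gather in the fibrillar and beaded filament genes for Responder, Relapse and Stabilization against NonResponder, and the asterisks for Responder against IgG all mark lower genes.

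The Responder difference was also fitted in each series, since both held both outcomes, in a model of all 90 arrays with a mean for each group in each series. All 13 higher genes and all 6 lower genes had the same sign in the larger and in the smaller series. These genes were picked by the fit of both series together, so a shared sign was favoured in advance and is no separate support. With all 90 arrays in, the smaller series gave the larger difference for 11 of the 13. In the larger series Col1a1 ranged from 7.21 to 13.21 in 17 Responder arrays and from 6.12 to 11.67 in 14 NonResponder arrays. In the smaller series it ranged from 8.90 to 13.20 in 10 Responder arrays and from 7.25 to 9.82 in 9 NonResponder arrays. With all arrays in, the second pair of ranges overlapped less than the first. The differences for Col1a1 were 1.38 ± 0.48 (adjusted p = 0.081) and 1.56 ± 0.62 (adjusted p = 0.040), and for Col4a1 they were 0.30 ± 0.28 (adjusted p = 0.465) and 0.89 ± 0.35 (adjusted p = 0.039).

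Counts by series depended on the 5 arrays. In the larger series limma called 0 of 42 collagen genes (14 at an unadjusted p under 0.05), where 2.63% of all genes were called; with the 5 arrays left out, of which NonResponder 14 enters this comparison, 10 collagen genes were higher and 3 lower, where 24.9% of all genes were called. In the smaller series 11 were higher and 5 lower, where 36.7% of all genes were called; with the 5 left out, of which Responder 20 and Responder 21 enter, 0 were higher and 1 lower, where 12.5% were called. Col6a2 in the smaller series moved from 1.72 ± 0.53 (adjusted p = 0.011) to 1.26 (adjusted p = 0.075). A difference between the series was tested by an interaction contrast, which limma called for 0 of 42 collagen genes and 0 of 18193 genes. For Col4a1 that contrast was 0.59 ± 0.45 (adjusted p = 0.524), with a 95% interval of -0.29 to 1.48.

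Over both series together and without the 5 arrays, 12 of the 13 higher genes and all 6 lower genes were called again, Col4a1 being the exception, and Col23a1 (0.12, adjusted p = 0.0476) was newly called. The counts became 13 higher and 10 lower, beside 18% and 31.6% of all genes (49.6% in either direction). Col1a1 kept a difference of 1.44 (adjusted p = 0.00141) and Col6a2 1.23 (adjusted p = 0.000879).

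**Figure D3:**
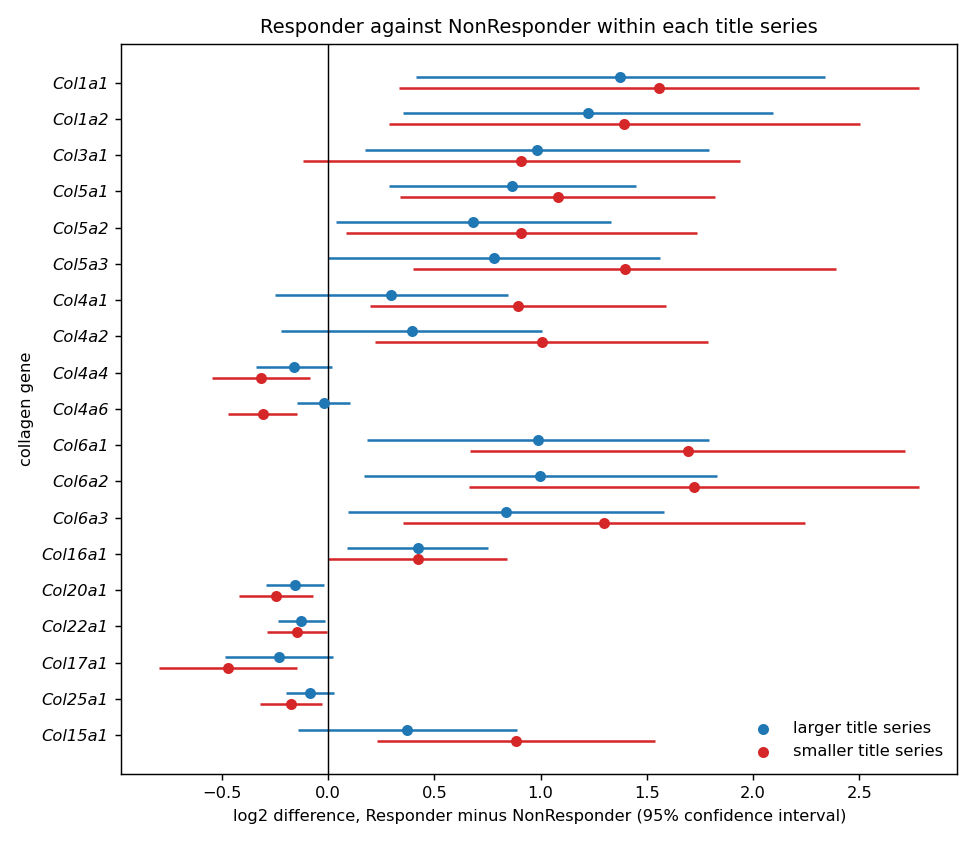
Responder minus NonResponder on the log2 scale (horizontal axis) with 95% intervals for the 19 collagen genes called in that comparison (vertical axis), in the larger and in the smaller title series. Every point for the 13 higher genes lies above 0 in both series, and for 11 of them the smaller series lies farther out. The genes were picked by the fit of both series together, which favours a shared sign.

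Markers of fibroblasts moved with these genes. The fibroblast score, the mean log2 value of 13 markers that are not collagens, was 7.93 ± 0.95 (SD) in Responder and 7.28 ± 0.67 in NonResponder tumours, with ranges of 6.21 to 9.93 and 6.10 to 9.36. Of the 13 markers 9 were higher and 1 lower by limma, with a median difference of 0.84. Of 8 endothelial markers 5 were higher, of 8 macrophage markers all 8, of 8 T cell markers 7, and of 8 melanocyte markers 0 were higher and 2 lower. Over all genes 17.2% were higher and 29.8% lower in the same fit. With the fibroblast score added to the model, 0 of the 13 higher genes were called, beside 8.35% of all genes in either direction, and 12 of the 13 kept their sign. The median of their differences was 0.17 in that model and 0.95 without the score. Col1a1 was then 0.32 (adjusted p = 0.212), Col6a1 0.26 (adjusted p = 0.142), Col4a2 0.17 (adjusted p = 0.573) and Col5a2 -0.03 (adjusted p = 0.871). What part cell composition has in the difference was not tested.

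**Figure D4:**
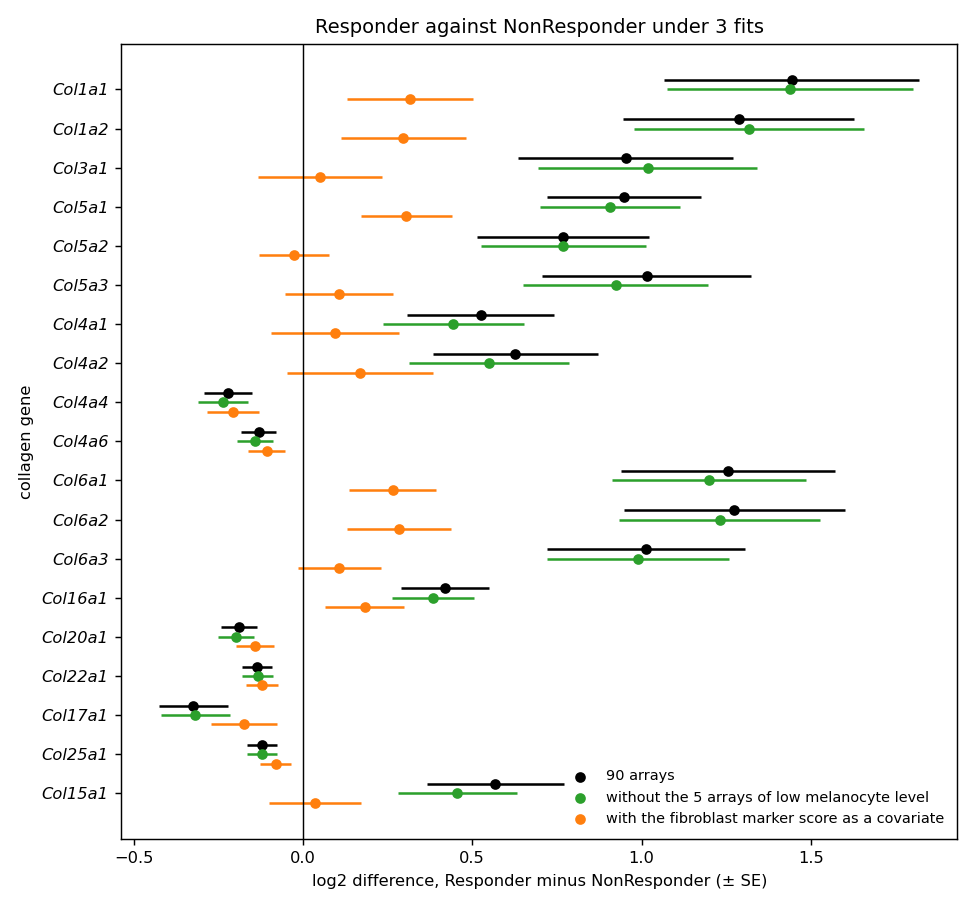
Responder minus NonResponder on the log2 scale (horizontal axis, mean and SE) for the called collagen genes (vertical axis) with all 90 arrays, without the 5 low-melanocyte arrays, and with the fibroblast score as a covariate. The first 2 fits lie close together, and with the covariate the points of the 13 higher genes lie between -0.03 and 0.32.

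Genes that make, cross-link, bind and cut collagen were grouped into lists by function. In this comparison 9 of 18 measured genes for making the chains were higher and 1 lower, with a median difference of 0.20, beside the 17.2% and 29.8% of all genes and their median of -0.06. Crtap, a helper of proline hydroxylation, differed by 0.37 ± 0.10 (adjusted p = 0.00347), and Ppib, an isomerase of the same complex, was the lower gene (-0.15 ± 0.04, adjusted p = 0.00322). Of the processing and cross-linking genes 4 of 10 were higher (median 0.25), among them the procollagen protease Bmp1 (0.43 ± 0.13, adjusted p = 0.00789) and the cross-linking enzyme Loxl1 (1.15 ± 0.36, adjusted p = 0.00855). Among collagen receptors 4 of 9 were higher and 1 lower (median 0.12). The kinase Ddr2 (0.36 ± 0.11, adjusted p = 0.00779), the inhibitory immune receptor Lair1 (0.65 ± 0.20, adjusted p = 0.00913) and the uptake receptor Mrc2 (0.69 ± 0.23, adjusted p = 0.0141) were among the higher.

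Proteases that cut collagen were higher in 5 of 9 cases (median 0.30), with Mmp14 at 0.54 ± 0.13 (adjusted p = 0.00164), Mmp13 at 1.06 ± 0.28 (adjusted p = 0.00275) and the fibroblast protease Fap at 0.70 ± 0.26 (adjusted p = 0.0217). Partners of fibrils were higher in 9 of 14 cases and lower in 0, with a median of 0.65. Bgn, a small proteoglycan, differed by 1.09 ± 0.30 (adjusted p = 0.0036) and Prelp, which anchors fibrils to membranes, by 0.77 ± 0.16 (adjusted p = 0.000305). Of the basement membrane partners 6 of 14 were higher and 3 lower (median 0.19), with Nid1, which bridges laminin and type IV collagen, at 0.89 ± 0.26 (adjusted p = 0.00618) and Lamb3, a chain of skin laminin, at -0.17 (adjusted p = 0.0155). Genes of the same lists that were not called include Lox, the founding cross-linking enzyme, at 0.51 ± 0.34 (adjusted p = 0.208).

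The same lists were counted in the other comparisons. Responder against IgG, described next, called 4 higher and 1 lower of 18 genes for making collagen, 0 of 10 for processing, 1 of 9 receptors higher, 2 of 9 proteases higher, 1 of 14 fibril partners higher, and 1 higher and 2 lower of 14 basement membrane partners, beside 14.5% higher and 22.8% lower of all genes. Relapse against NonResponder called 3 of 18, 2 of 10, 2 of 9, 1 of 9, 5 of 14 and 3 of 14 higher in the same order of lists, and 1 basement membrane partner lower, beside 8.43% and 11.9% of all genes. The fibril partners had the largest median there, 0.88. Stabilization against NonResponder called 8 of 18, 7 of 10, 2 of 9, 5 of 9, 7 of 14 and 6 of 14 higher and none lower, beside 10.5% and 11.9% of all genes. Without the 5 low-melanocyte arrays, which leaves 1 Stabilization array, none of these was called.

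Against the IgG controls no collagen gene was called higher in Responder tumours in the main model, with a fixed series term and equal array weights. Other fits that kept the series called some. As a random block it gave 1 higher and 6 lower, where 6875 of 18193 genes were called. With the fibroblast score added, 1 was higher and 7 lower, where 6718 genes were called. With array weights 7 were higher and 10 lower, where 11203 of 18193 genes were called in either direction. Without the series term 5 were higher and 4 lower, where 6217 genes were called. With the term and equal weights the counts were 0 of 42 higher and 6 lower, where 14.5% and 22.8% of all genes were called (37.3% in either direction), and all 6 lower genes differed by less than 0.3 on the log2 scale. The 6 were Col6a4 (-0.28 ± 0.09, adjusted p = 0.015), Col13a1 (-0.27 ± 0.07, adjusted p = 0.00386), Col25a1 (-0.17 ± 0.05, adjusted p = 0.0135), Col19a1 (-0.16 ± 0.05, adjusted p = 0.0152), Col20a1 (-0.19 ± 0.07, adjusted p = 0.0186) and Col22a1 (-0.14, adjusted p = 0.0335). Col13a1, a membrane-spanning chain, read 4.36, 4.56 and 4.88 in Responder and 4.37, 4.75 and 5.46 in IgG tumours, and 21 of 27 Responder arrays lay below the IgG median. Col1a1 read 7.17, 9.25 and 11.82 in IgG tumours, with 18 of 27 Responder arrays above that median. These IgG ranges and medians cover all 22 IgG arrays. With a series term, the fitted differences from IgG rest on the 14 IgG arrays of the larger series. The 8 IgG arrays in a range of their own add only to the estimate of spread. The Responder difference from IgG was 0.82 ± 0.46 for Col1a1 (adjusted p = 0.14, 95% interval -0.09 to 1.73), 0.67 ± 0.40 for Col6a2 (adjusted p = 0.166) and 0.32 ± 0.26 for Col4a1 (adjusted p = 0.333).

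Col3a1 shows how far the series term matters here. Its plain mean was 12.64 in Responder and 12.32 in IgG tumours, yet the fitted difference was -0.13 ± 0.39 (adjusted p = 0.802), and within the larger series the means were 12.21 and 12.37. Responder tumours of the smaller series had a mean of 13.37, and no IgG array lies there. Within the larger series, in the same model as the within-series values above, limma called 0 collagen genes higher and 6 lower, where 27.3% of all genes were called.

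For NonResponder tumours against IgG limma called 0 of 18193 genes (838 at an unadjusted p under 0.05), collagen genes included. Among collagen genes 5 had an unadjusted p under 0.05, and 32 of 42 differences were negative. Col3a1 read 6.92, 12.17 and 13.82 in NonResponder tumours and 9.61, 12.36 and 13.93 over all 22 IgG tumours. The fitted difference, which rests on the IgG arrays of the larger series, was -1.08 ± 0.40 (adjusted p = 0.99). Col1a2 differed by -0.98 ± 0.43, Col8a1, a network chain of vessel walls, by -0.78 ± 0.36, and Col1a1 by -0.62 ± 0.47. Of the 22 genes with a mean of at least 6, 21 were negative with a median of -0.37, beside 0.02 over all 11241 such genes. No share of negative differences over all genes was set beside these counts of signs. Many of these collagen genes rise and fall together from array to array, as given below, so their signs are not separate observations. Whether the collagen genes as a set were lower was not tested. The Responder and NonResponder comparisons with IgG share the IgG arrays, and the values for Col1a1 were 0.82 and -0.62.

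Across all 7 groups the plain means of Col1a1 ran from 8.46 in PBS tumours through 8.71 in NonResponder, 9.04 in GrowthDelay, 9.13 in IgG, 10.14 in Responder and 10.67 in Relapse to 11.69 in Stabilization tumours. Of the neighbours in that order that were compared, GrowthDelay differed from NonResponder by 0.47 ± 0.99 in the fitted model. Responder differed from IgG by 0.82 ± 0.46 and Relapse from Responder by 0.48 ± 0.60. Stabilization, which is not next to Responder in that order, differed from it by 1.31 ± 0.84, and limma called none of these. The means of Col4a1 lay much closer, from 9.73 in NonResponder to 10.27 in Relapse tumours with the Stabilization mean above that. Col4a5 had its highest mean, 8.12, in PBS tumours (7.17 to 9.24), beside 7.52 in IgG tumours. The fitted difference of IgG from PBS, which rests on arrays of the larger series, was not called.

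Relapse tumours were called higher than NonResponder tumours for 7 fibrillar and type VI genes, calls that depended on single Relapse arrays as given below. The 6 Relapse arrays read 11.06, 8.93, 12.09, 11.48, 9.91 and 10.57 for Col1a1, all above the NonResponder median of 8.72. For Col6a2 they read 10.61, 9.21, 11.65, 11.22, 9.72 and 10.64, again all above the NonResponder median. The second array was the lowest for both genes. Against NonResponder tumours limma called 8 of 42 collagen genes higher and 4 lower, where 8.43% and 11.9% of all genes were called (20.3% in either direction). Within the larger series it called 0 of 42 and 0 of 18193 genes (11 and 1426 at an unadjusted p under 0.05), and within the smaller 0 higher and 3 lower of 42, where 13.1% of all genes were called.

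The higher genes were Col1a1 (1.93 ± 0.61, adjusted p = 0.027), Col1a2, Col5a1, Col5a3, the 3 type VI chains Col6a1, Col6a2 and Col6a3, and Col16a1. All 8 were also called in the Responder comparison, which shares the NonResponder arrays. Col6a2 differed by 1.68 ± 0.53 (adjusted p = 0.026) and Col5a1 by 1.23 ± 0.37 (adjusted p = 0.022), while Col3a1 differed by 1.33 ± 0.51 (adjusted p = 0.053) and Col4a1 by 0.59 ± 0.35 (adjusted p = 0.185). The lower genes were Col22a1 (-0.29 ± 0.07, adjusted p = 0.009), Col2a1 (-0.26 ± 0.08, adjusted p = 0.018), Col25a1 and Col20a1. Leaving out single Relapse arrays left between 1 and 15 collagen genes called, beside 557 to 4064 of 18193 genes. Without Relapse 1, 3, 4 or 6 no higher collagen gene was called. Without the 5 arrays the counts were 12 higher and 5 lower, where 40.5% of all genes were called. Relapse against Responder gave 0 of 18193 genes called (803 at an unadjusted p under 0.05, 2 of them collagens).

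Of the 3 Stabilization arrays, 2 were among the 5 with few melanocyte transcripts, and those 2 had the higher values of the main fibrillar and type VI genes. Col1a1 read 13.12 and 12.19 on those arrays and 9.75 on the third, Col6a2 read 13.22, 11.92 and 9.14, and Col5a3 read 11.27, 8.81 and 6.61. The third array lay below the Responder median for all 3 genes, and also for Col5a1, Col6a1 and Col6a3. It lay above that median for Col1a2 (12.14 against 12.11), Col3a1 (13.14 against 13.08) and Col5a2 (10.87 against 10.61). Against NonResponder tumours limma called 14 of 42 higher and 2 lower, where 10.5% and 11.9% of all genes were called. Col5a1 differed by 2.11 ± 0.51 (adjusted p = 0.004) and Col18a1 by 1.53 ± 0.39 (adjusted p = 0.007). Col12a1, on 1 of its 4 probe sets, differed by 2.54 ± 0.68 (adjusted p = 0.008). Col4a5 was at -0.93 ± 0.28 (adjusted p = 0.016) and Col17a1 at -0.69 (adjusted p = 0.023). Without the 5 arrays only 1 Stabilization array is left, its spread assumed like that of the other groups; 0 genes of any kind were called, and Col1a1 differed by 1.02 where it had differed by 2.76. Leaving out Stabilization 1 alone left 0 collagen genes called, where 2 of 18193 genes were called. Leaving out Stabilization 2 alone left 6, where 872 genes were called. Against Responder tumours limma called 0 of 42 (10 at an unadjusted p under 0.05), where 0.319% of all genes were called, 0.225% higher and 0.0934% lower.

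The other comparisons gave no collagen call. For GrowthDelay against NonResponder limma called 0 of 18193 genes (567 at an unadjusted p under 0.05, 1 of them a collagen gene), and the 2 tumours read 7.73 and 10.35 for Col1a1. For IgG against PBS it called 1 gene, 0.0055% of those tested, and 0 of 42 collagen genes (0 at an unadjusted p under 0.05). The fitted difference of IgG from PBS rests on the 3 PBS arrays of the larger series. The 4 PBS arrays in a range of their own add only to the estimate of spread, because the term of that range takes up their level.

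The last question is which collagen genes rose and fell together from tumour to tumour, once the group and series means had been removed. Correlations were computed over the 90 arrays for 11 pairs of chains known to share a helix or fibril and for Col1a1 with Col4a1 across classes, with Benjamini-Hochberg adjustment over the 12 and 100000 permutations, for which 1e-05 is the smallest p possible. Col4a1 and Col4a2, whose windows are printed above, had r = 0.984 and rho = 0.976 (permutation p = 1e-05 for both, adjusted 1.5e-05). Within the larger series r was 0.984 and within the smaller 0.985, without the 2 arrays farthest from the Col4a1 median it was 0.982, and without the 5 low-melanocyte arrays 0.981. Col1a1 and Col1a2 had r = 0.952 and rho = 0.969 (permutation p = 1e-05), with 0.956 and 0.955 within series and 0.947 without the 2 farthest arrays. Col6a1 had r = 0.973 with Col6a2 and 0.970 with Col6a3.

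For 3 of the pairs no correlation was detected over all arrays. Col4a3 and Col4a4, which pair in the kidney, had r = 0.0059 and rho = 0.0125 (permutation p = 0.957 for r), Col4a5 and Col4a6 had r = 0.132 and rho = 0.0904 (p = 0.214), and Col11a1 and Col11a2 had r = 0.0667 and rho = 0.0623 (p = 0.531). Within the larger and the smaller series r was 0.083 and -0.117 for the first pair, 0.360 and -0.022 for the second and -0.0701 and 0.224 for the third. Several of these probe sets are dim. Col9a1 and Col9a2 had r = 0.283 and rho = 0.298 (permutation p = 0.00678, adjusted 0.00904). In all, 8 of the 11 pairs of a shared helix or fibril passed in both r and rho. Across classes, Col1a1 and Col4a1 had r = 0.727 and rho = 0.698 over all arrays (permutation p = 1e-05), 0.674 in the larger series, 0.898 in the smaller and 0.702 without the 2 farthest arrays.

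Col1a1 was also set against each of the other 41 collagen genes. Both r and rho passed the adjusted threshold with a positive sign for 21 of them and with a negative sign for 3 (Col17a1, Col25a1 and Col10a1), and r was above 0.8 for 10. The partners nearest to Col1a1 beyond its own chain were Col6a2 (r = 0.951), Col6a1 (0.948), Col6a3 (0.945) and Col5a2 (0.939), while Col14a1 had r = 0.423. These relations share the 90 arrays, so they are not independent of each other. The share of all other genes that pass the same threshold with Col1a1 was not set beside these counts. Whether collagen genes follow Col1a1 more often than other genes do was therefore not tested.

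**Figure D5:**
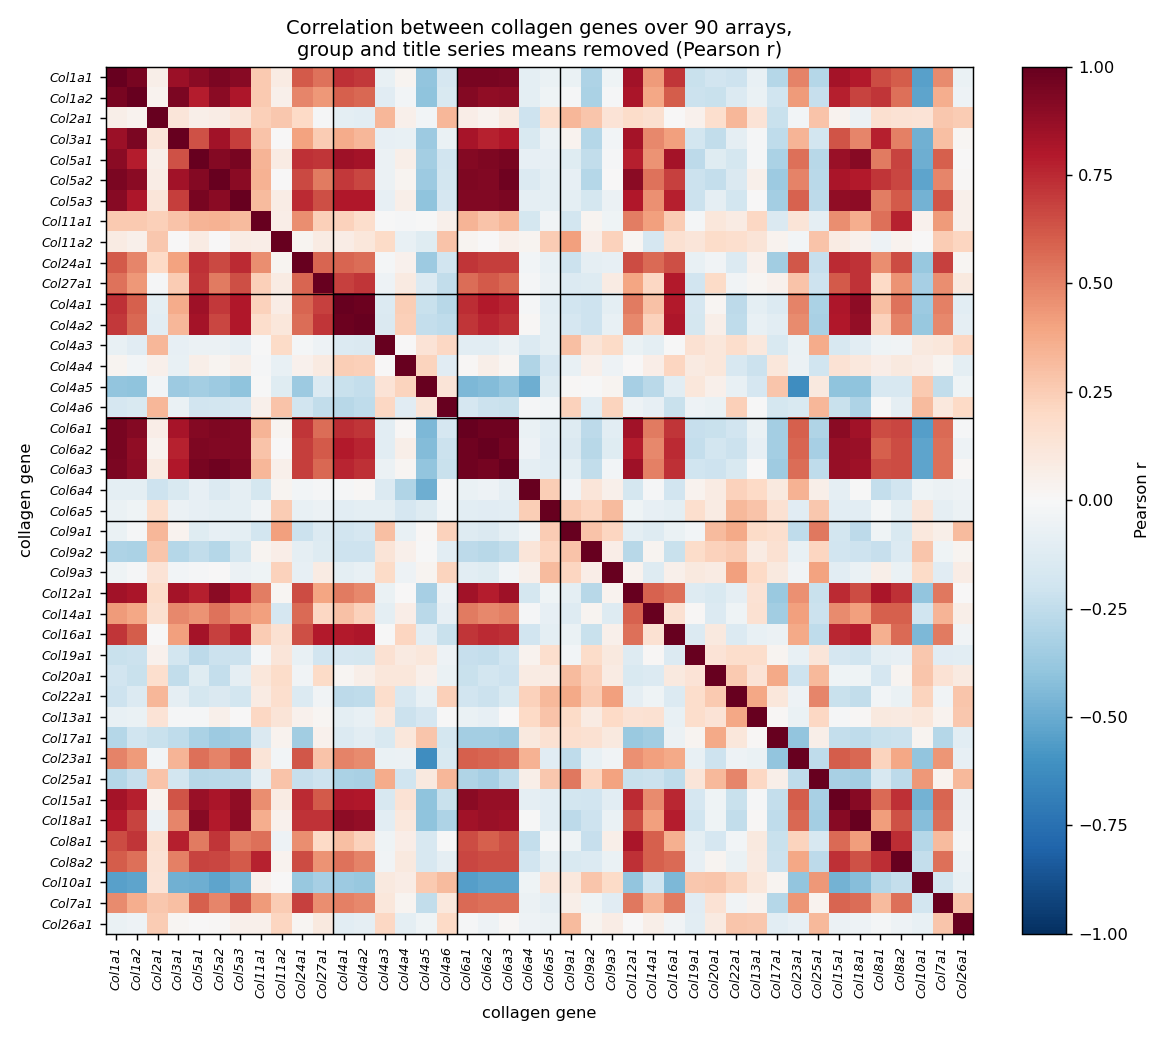
Pearson correlation (colour) over 90 arrays between residuals of each pair of the 42 collagen genes after group and series means were removed, with genes in class order on both axes. Col1a1, Col1a2, Col5a1, Col5a2 and the type VI chains Col6a1, Col6a2 and Col6a3 form a block of high values, and many dim genes lie near 0.

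Each collagen gene was set against 4 marker scores. Over 168 relations (42 genes and 4 scores), 22 genes had a positive r and rho past the adjusted threshold with the fibroblast score, 22 with the endothelial score and 21 with the pericyte and myofibroblast score, and 4 had a negative r and rho with each of these. Col4a5 and Col10a1 were among the negative genes for all 3 scores. The share of all genes past the same threshold was not set beside these counts. Whether collagen genes pass it more often than other genes was not tested. With the fibroblast score r was 0.926 for Col5a2, 0.925 for Col6a1, 0.887 for Col1a1 (rho = 0.856) and 0.588 for Col4a1 (rho = 0.497), each with a permutation p of 1e-05, adjusted 2.3e-05. With the endothelial score r was 0.939 for Col18a1 (rho = 0.917), 0.916 for Col15a1, 0.858 for Col4a1 (rho = 0.833) and 0.577 for Col3a1 (rho = 0.630), at the same p. Within the larger and the smaller series r was 0.897 and 0.866 for Col1a1 with the fibroblast score, and 0.847 and 0.920 for Col4a1 with the endothelial score. Without the 2 arrays farthest from the median the first was 0.875 and the second 0.827. Whether the 2 correlations of 1 gene differ was not tested.

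The melanocyte score gave a positive r and rho past the threshold for 2 genes and a negative one for 16, again with no share of all genes beside them. Col4a5, a type IV chain, had r = 0.612 and rho = 0.354 with it, but r was 0.212 without the 5 low-melanocyte arrays, so that relation rests on them. Col23a1, a membrane-spanning chain, had r = -0.781 and rho = -0.316, and r = -0.127 without those arrays.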

How the data were processed

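RNA of whole tumours was hybridised to Affymetrix arrays. The deposited values are log2 intensities of 45101 probe sets (64 of them controls), and the submitters' processing notes name RMA and limma, with no version or role; which arrays were normalised together is not given in the sources used here. Of the rest, 34945 probe sets had 1 gene symbol, 932 several and 9160 none. The probe set with the highest mean represented each gene. Groups came from the treatment labels. limma 3.58.1 in R 4.3.3 was fitted to all 90 arrays with group and title series as terms; within-series values and the interaction came from a second fit with a mean for each group in each series. P-values were two-sided, Benjamini-Hochberg adjusted over 18193 genes and called under 0.05; the scripts were tested on simulated data. The collagen genes, the gene lists and the tests were chosen with earlier results of these data known. Genes named in the text were every called fibrillar, basement membrane and type VI gene, the 8 other called genes with the smallest p, the brightest uncalled gene of each class, up to 6 genes in each direction of the smaller comparisons and up to 4 of each list; others named were chosen after their values were seen. Alternatives covered normalisation, dim genes, probe set averaging, series, array weights, variance prior, the fibroblast score and left-out arrays. Arrays give no counts, so their number limits precision.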

Additional observations from a re-analysis of the deposited data

Results flagged for a closer look

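In 84 groups of 4 to 10 samples (the 42 collagen genes in the PBS and Relapse groups), 6 held a sample far from the others by Dixon's criterion; chance alone gives about 1 in 20. Col1a2 was 8.46 on PBS 6. Col11a1 was 5.66 and Col8a2 4.63 on PBS 1. In the Relapse group Col4a6 was 5.86 on Relapse 6, Col6a5 was 3.40 on Relapse 4 and Col12a1 was 9.06 on Relapse 3, whose Col5a3 value of 9.76 was also the highest of its group.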

How the results depend on the processing

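Of 130 counts of called collagen genes recomputed under alternatives, 109 stayed within 1.5 times and 21 moved. Most of the 109 were counts of 0 that stayed 0, in comparisons with no collagen call in the main fit. Most of the 21 were in the comparisons that had collagen calls, so the 109 is no measure of how stable those calls were. For Responder against NonResponder (19 called) the count was 1 when the larger series was fitted by itself, where 550 of 18193 genes were called. It was 10 when the smaller was, where 3467 genes were called (the report gives within-series counts from 1 model of all arrays). With the fibroblast score as a covariate it was 0, where 1520 genes were called. The mean of all probe sets of a gene gave 14 higher and 12 lower, where 8541 genes were called. For Responder against IgG (6 called) it was 3 without dim genes, where 4231 of 11241 genes were called. With array weights it was 17 (7 higher, 10 lower), where 11203 of 18193 genes were called. Without a series term 5 were higher and 4 lower, where 6217 genes were called. For Relapse against NonResponder (12 called) it was 0 in either series alone, where 0 genes were called in the larger and 542 in the smaller. It was 24 with array weights, where 10409 genes were called, and 2 with the fibroblast score, where 1869 were. On leaving out 1 Relapse array it was 1 to 15, where 557 to 4064 genes were called. Quantile normalisation gave 4 higher and 4 lower, where 2073 genes were called. For Stabilization against NonResponder (16 called) it was 36 with array weights, where 14582 of 18193 genes were called, and 0 with the fibroblast score, where 14 were. On leaving out 1 Stabilization array it was 0 to 22, where 2 to 6666 genes were called. For Stabilization against Responder (0 called) array weights gave 30, where 12934 of 18193 genes were called. Leaving out 1 Stabilization array gave 0 to 10 there, where 1 to 2727 genes were called. For IgG against PBS (0 called) array weights gave 4, where 2273 genes were called. The cause of these moves was not tested. Of 1010 values of named genes, 742 kept direction and call, 261 lost the call and 7 changed sign: Pcolce2 in the larger series alone (-0.037), Col5a2 (-0.026), Mrc2 (-0.041) and Fap (-0.070) in the Responder comparison and Col1a2 (-0.055) in the Stabilization comparison with the fibroblast score, and Col24a1 (-0.055) and Col27a1 (-0.11) in the Stabilization comparison without the 5 arrays. Series as a random block, a trended robust variance prior and median centring changed no count by more than 1.5 times. Array weights were fitted with a convergence warning. No paired analysis was possible because the labels carry no replicate numbers; those used here name samples in accession order.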
